A study of Mus musculus with 12 samples.

Results

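Collagen chains are the subunits of the collagens, the triple-helical proteins of the extracellular matrix, and each chain is the product of a gene of its own. Every gene in the deposited expression table whose symbol has the form Col, number, a, number was taken as a collagen chain, which gave 44 of the 45706 genes listed. By structural class they were 11 fibrillar chains, 6 type IV chains of basement membranes, 6 type VI chains, 9 fibril-associated chains, 3 short-chain network collagens, 2 multiplexins, 4 transmembrane collagens and 3 others. The symbol alone decided which genes were members, and this choice was made with earlier results of these data known. The cells were BN1-Tie2-EGFP cells, a murine hepatoblastoma line whose tumor of origin was driven by mutant β-catenin and mutant NRF2 with concurrent targeting of the Cdkn2a tumor suppressor locus. They carried EGFP driven by Tie2, an endothelial promoter. All groups shared this 1 parental line, its Cdkn2a-targeted genotype, which the paper describes as partial inactivation, and the reporter. The reporter had been introduced as pooled stable clones. Monolayer cultures were profiled by RNA-seq under 4 conditions with 3 libraries each. The UN group grew unsorted at 21% oxygen, and the UH group grew unsorted at 1% oxygen for 2 days. For the SN group, the cells with the highest EGFP after 2 days at 1% oxygen were sorted and grown on at 21% oxygen for about 10 days. The SH group came from the same sorted cells after 2 further days at 1% oxygen. Sorted groups thus differed from unsorted groups by the sort, the earlier hypoxia and the later growth together, and these cannot be told apart. The paper calls the replicas independent and does not say whether they came from separate sorts. Libraries are named below by group and replicate number (UN1, UN2, UN3).

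Fibrillar collagens (types I, II, III, V, XI, XXIV and XXVII) form the striated fibrils of connective tissue, and types I, III and V are the usual fibrils of liver stroma, where stellate cells and fibroblasts make most of them. Type IV chains form the sheet-like network of basement membranes, type VI forms beaded microfilaments around cells, and fibril-associated chains bind to the surface of fibrils. Chains assemble into trimers in fixed partnerships, are hydroxylated on proline and lysine by oxygen-dependent enzymes, and are cleaved and crosslinked after secretion.

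The stretches just upstream of 3 of these genes are shown for a chain nearly lost in sorted cells (Col3a1) and for a pair of fibrillar chains called higher under hypoxia in both populations (Col5a3 and Col11a2). They were picked after the values were seen, from the chains whose whole window was free of annotated exons. Each line gives the 250 bases before the RefSeq start on the gene's own strand (build GRCm38.p6), at chr1:45311288-45311537 (+ strand), chr9:20815068-20815317 (− strand) and chr17:34038888-34039137 (+ strand). Capitals mark 5 motifs on either strand. They are the CCAAT box, the TATA box spelled TATAAA, the GC box spelled GGGCGG, and the core of the hypoxia response element, which was searched as ACGTG and separately as GCGTG.
Col3a1: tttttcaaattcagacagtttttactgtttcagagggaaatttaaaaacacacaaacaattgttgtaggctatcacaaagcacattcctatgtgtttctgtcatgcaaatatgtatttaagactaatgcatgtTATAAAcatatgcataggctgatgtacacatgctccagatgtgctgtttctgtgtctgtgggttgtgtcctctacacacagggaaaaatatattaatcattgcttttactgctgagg
Col5a3: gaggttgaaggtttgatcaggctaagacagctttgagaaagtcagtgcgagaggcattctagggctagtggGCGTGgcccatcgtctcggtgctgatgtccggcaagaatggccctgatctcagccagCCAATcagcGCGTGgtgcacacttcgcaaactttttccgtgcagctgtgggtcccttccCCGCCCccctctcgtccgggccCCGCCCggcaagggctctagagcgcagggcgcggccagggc
Col11a2: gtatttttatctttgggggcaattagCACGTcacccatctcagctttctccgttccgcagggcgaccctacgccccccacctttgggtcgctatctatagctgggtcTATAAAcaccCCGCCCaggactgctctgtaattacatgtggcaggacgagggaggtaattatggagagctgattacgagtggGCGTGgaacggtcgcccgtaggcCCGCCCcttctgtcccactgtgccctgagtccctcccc
The Col3a1 window held a TATA box only. The Col5a3 window held a CCAAT box, 2 GC boxes and 2 hypoxia cores, both of the second spelling. The Col11a2 window held a TATA box, 2 GC boxes and 1 hypoxia core of each spelling. RefSeq promoters were matched for 35 of the 44 chains. Of 32851 promoter windows of all genes, 33.8% held a CCAAT box, 12.4% a TATA box, 32.7% a GC box, 16.6% the first hypoxia core and 28.2% the second. Of the 38 windows of collagen chains the shares were 34.2%, 13.2%, 57.9%, 13.2% and 21.1%. These are matches of letters, and the binding of any factor was not measured.

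Values are TPM, transcripts per 1000000, a unit that allows for transcript length and has the same total in every library, so that levels of different chains can be set side by side. The sequencing depth cannot be read from TPM and is unknown. The libraries held 18901 to 22369 genes with a value above 0, and mitochondrially encoded genes took 1.67% to 8.38% of the TPM. The 18909 genes whose TPM averaged 0.1 or more were tested by limma on the log2(TPM + 1) scale. Calls needed an absolute log2 fold change above 1 and a p under 0.05 after Benjamini-Hochberg adjustment. The added 1 makes folds of chains below a few TPM smaller than the ratio of their TPM. Of 12 hepatocyte or hepatoblast markers, 7 averaged at least 1 TPM in UN, 5 in UH, 3 in SN and 4 in SH. Of the 12, 3 (Ttr, Apoa1 and Fgb) were under 1 TPM in every library. Alb averaged 2.51, 1.89, 0.212 and 0.323 TPM in UN, UH, SN and SH, while Krt18 was at 63.5 to 157 TPM. Of 15 endothelial markers, 10 were under 1 TPM in every library, Pecam1, Cdh5, Kdr and Tie1 among them. In bulk RNA, fewer cells making a transcript and less transcript per cell cannot be told apart, and this holds for every value below. P-values rest on the spread between 3 replicate cultures of 1 line in each group, pooled over the 4 groups. A library that stands apart in its group therefore also widens the error of comparisons without that group. Of the 44 chains, 31 passed the filter and were tested. The other 13 averaged 0.0166 to 0.0965 TPM, with a highest single value of 0.476 TPM: Col4a4, Col6a4, Col6a6, Col8a2, Col9a1, Col9a2, Col10a1, Col11a1, Col13a1, Col19a1, Col24a1, Col25a1 and Col26a1.

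Collagen chains took a smaller part of the transcriptome in sorted cells than in unsorted cells, and fibrillar chains made most of that difference. The gap was wide under hypoxia, and in normoxia it was narrower for UN2 and UN3 than for UN1. All 44 chains together held 0.577%, 0.271% and 0.248% of the TPM in UN1, UN2 and UN3. They held 0.614%, 0.910% and 0.817% in the UH libraries, 0.145%, 0.132% and 0.142% in the SN libraries and 0.159%, 0.154% and 0.145% in the SH libraries. Every unsorted library was above every sorted library, and UN1 stood nearer to the UH libraries than to UN2 and UN3. Fibrillar chains alone held 0.424%, 0.112% and 0.0959% in the UN libraries, 0.519% to 0.776% in UH, 0.0128% to 0.0153% in SN and 0.0162% to 0.0169% in SH. Type VI chains held 0.102% to 0.120% in UN, 0.0290% to 0.0411% in UH, 0.0536% to 0.0626% in SN and 0.0475% to 0.0509% in SH. The multiplexins ran the other way, with 0.00639% to 0.0113% in UN, 0.00779% to 0.0112% in UH, 0.0319% to 0.0357% in SN and 0.0379% to 0.0413% in SH. The make-up of the collagen transcripts therefore differed as well as their sum.

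**Figure D1:**
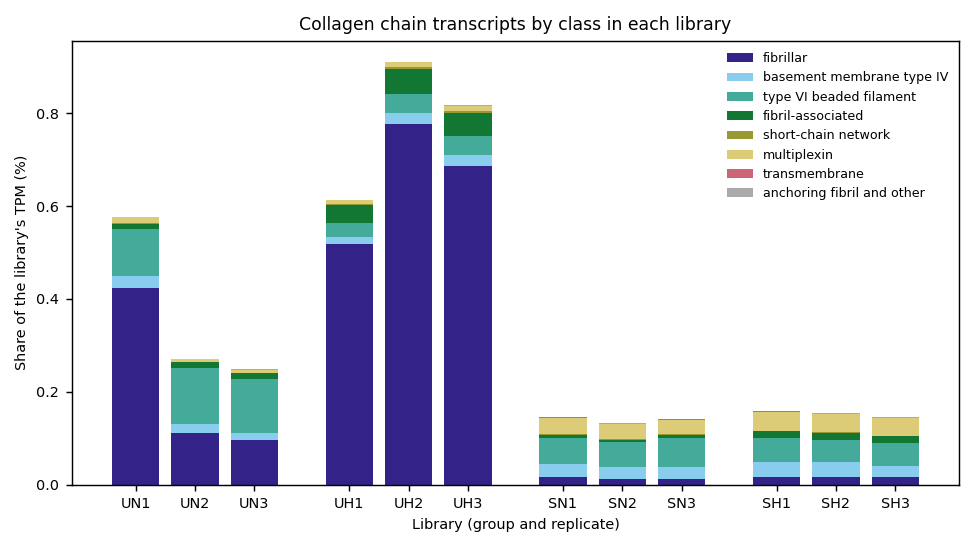
Stacked bars give the share of each library's TPM (%) held by the 8 classes of collagen chain, 1 bar per library. The dark fibrillar segment fills most of the UH bars and of UN1 (0.424% to 0.776%) and is at most 0.0169% in the 6 sorted libraries.

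Hypoxia was followed by calls mainly in the upward direction in both populations. In UH vs UN, 12 of the 31 chains were called higher, against 5.46% of all genes tested, and 3 were called lower, against 11.8%. Median-of-ratios scaling turned the split of all genes in that comparison to 8.27% higher and 6.44% lower and left the chains at 12 and 3. In SH vs SN, 9 chains were called higher (7.47% of all genes) and 0 lower (5%). With quantile normalization the split in SH vs SN was 8 higher and 1 lower, the latter being the transmembrane chain Col23a1. Col1a1, Col5a3, Col11a2, Col12a1 and Col20a1 were called higher in both comparisons, which is 41.7% of the 12 chains higher in unsorted cells and 55.6% of the 9 higher in sorted cells. The median log2 fold change over the 31 chains was 0.38 in unsorted and 0.26 in sorted cells, beside medians of −0.19 and 0.03 over all genes. The medians over the chains depended on the filter and the pseudocount: in UH vs UN the value was 0.12 with no filter on low values and 0.68 with a filter at a mean of 1 TPM, and in SH vs SN it was 0.67 with a pseudocount of 0.1.

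Sorted cells differed from unsorted cells mainly in the downward direction. In SN vs UN, 11 chains were called lower (7.57% of all genes) and 1 higher (3.2%). In SH vs UH, 12 were called lower (5.35%) and 4 higher (7.65%). With median-of-ratios scaling the latter split was 13 lower and 4 higher for the chains, and 7.0% lower and 5.40% higher for all genes. Col1a1, Col1a2, Col3a1, Col4a6, Col5a1, Col6a3, Col15a1 and Col16a1 were called lower in both, which is 72.7% of the 11 and 66.7% of the 12, and Col18a1 was called higher in both. The medians over the chains were −0.57 and −0.28, beside −0.06 and 0.17 over all genes. They ran from −0.12 with no filter to −1.21 with a pseudocount of 0.1 in SN vs UN, and from −0.01 with no filter to −1.09 with a filter at 1 TPM in SH vs UH. By mean TPM, the leading chains were Col3a1, Col1a1 and Col6a1 in UN and Col1a1, Col3a1 and Col1a2 in UH, whereas Col6a1 and Col18a1 led in both sorted groups. The UN order rested on UN1: in UN2 and UN3 the highest chains were Col6a1, Col1a1 and Col6a2, with Col3a1 at 222 and 173 TPM.

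**Figure D2:**
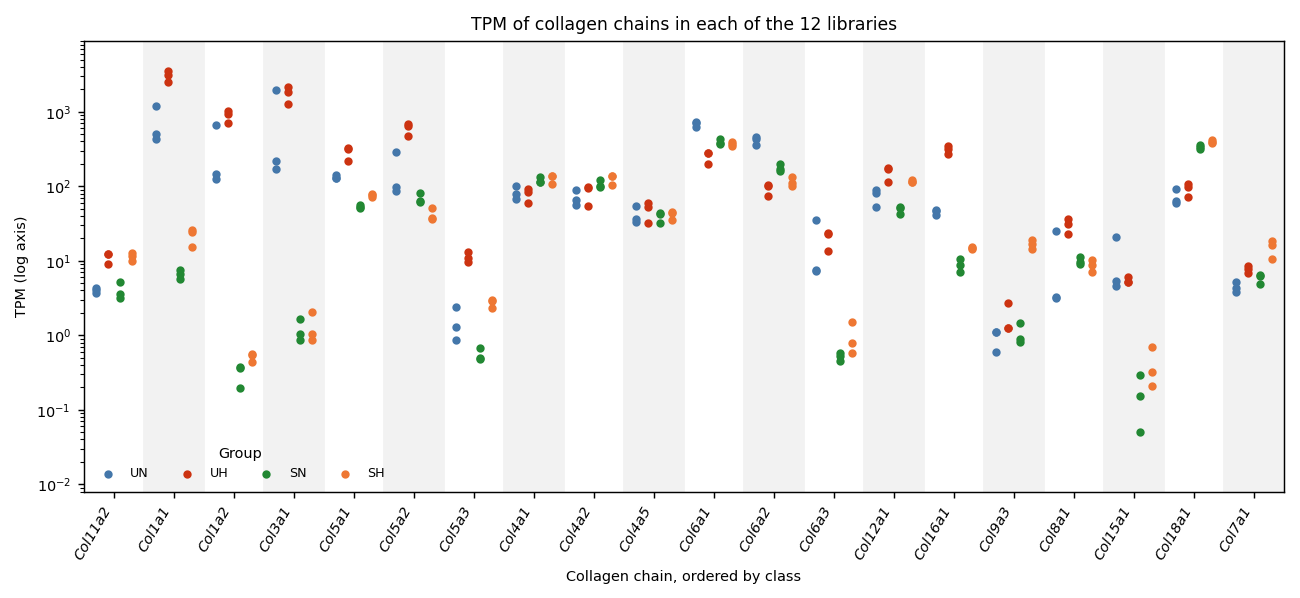
Each point is the TPM (log axis) of 1 of the 20 chains with a group mean of at least 10 TPM in 1 of the 12 libraries, coloured by group and ordered by class. Col1a1, Col1a2 and Col3a1 fall from 126 TPM or more in unsorted cells to between 0.198 and 26.3 TPM in sorted cells, while Col4a1, Col4a2 and Col4a5 stay between 32.0 and 139 TPM in every library.

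The largest differences between sorted and unsorted cells were in types I and III. Col1a1, the α1 chain of type I collagen (chr11:94936224-94953042, GRCm38), was at 1186, 499 and 428 TPM in UN1, UN2 and UN3 and at 2478, 3556 and 3119 TPM in the UH libraries. It was at 5.65, 6.71 and 7.62 TPM in SN and 26.3, 24.7 and 15.5 TPM in SH. None of the 4 groups overlapped. The log2 fold change was 2.25 ± 0.327 (SE) in UH vs UN (limma, adjusted p = 0.000157), 1.57 ± 0.327 in SH vs SN (adjusted p = 0.00246) and −6.38 ± 0.327 in SN vs UN (adjusted p = 9.21e-08). In SH vs UH it was −7.06 ± 0.327 (limma, adjusted p = 3.37e-08), and the mean TPM was 138 times higher in UH than in SH. The mean was 106 times higher in UN than in SN, and 69.6 times higher without UN1 (log2 −5.93). Col1a1 was thus higher under hypoxia on both sides of the sort.

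Col1a2, which supplies the α2 chain of the same trimer (chr6:4504814-4541544), was at 664, 145 and 126 TPM in UN, 714, 1011 and 923 TPM in UH, 0.375, 0.198 and 0.366 TPM in SN and 0.432, 0.562 and 0.542 TPM in SH. It was higher in UH than in UN by 1.92 ± 0.468 log2 (limma, adjusted p = 0.00530). In that comparison the call was lost when the 2 groups were fitted alone (adjusted p = 0.0677). The log2 fold change was −7.46 in SN vs UN (limma, adjusted p = 4.63e-07) and −9.18 in SH vs UH (adjusted p = 7.66e-08). As plain ratios, the mean TPM was 995 times higher in UN than in SN and 1724 times higher in UH than in SH. The first ratio was 433 without UN1. In SH vs SN the log2 fold change was 0.20, which was not called.

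Col3a1, the single chain of type III collagen (chr1:45311538-45349706), was the most variable of the abundant chains. It was at 1959.8 TPM in UN1 but 222 and 173 TPM in UN2 and UN3, at 1273, 2144 and 1824 TPM in UH, at 1.04, 0.856 and 1.65 TPM in SN and at 2.04, 0.852 and 1.03 TPM in SH. UN1 lay within the UH range, and SN and SH overlapped. The log2 fold change was 2.01 ± 0.689 in UH vs UN (limma, adjusted p = 0.0316), −7.62 in SN vs UN (adjusted p = 8.46e-06) and −9.57 in SH vs UH (adjusted p = 1.08e-06). The UH vs UN call was lost with no filter (limma, adjusted p = 0.0642), with quantile normalization (adjusted p = 0.0558) and when the 2 groups were fitted alone (adjusted p = 0.151). It was also lost without UH2 (log2 1.85), UH3 (1.97), UN2 (1.55) or UN3 (1.37), and was 3.12 without UN1 (limma, adjusted p = 7.61e-06). The SN vs UN value was −8.26 without UN3 and −6.51 without UN1. With a pseudocount of 0.1, Col1a2 fell further than Col3a1 in sorted cells, with −9.15 against −8.41 in SN vs UN and −10.49 against −10.34 in SH vs UH. An exon of Col3a1 overlaps one of Gm47302 on the same strand, so reads there could be split between them.

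Type V chains, which nucleate fibrils with type I, differed by less than types I and III between sorted and unsorted cells, but by as much in UH vs UN for Col5a2 and Col5a3. Col5a1 was at 128, 142 and 131 TPM in UN, 216, 325 and 317 TPM in UH, 56.8, 51.6 and 53.5 TPM in SN and 78.4, 75.4 and 72.7 TPM in SH, with no overlap between groups. It rose by 1.07 log2 in UH vs UN (limma, adjusted p = 5.54e-05), was lower in SN than in UN by −1.29 (adjusted p = 2.68e-05) and lower in SH than in UH by −1.89 (adjusted p = 1.05e-06). The UH vs UN value dropped below the fold threshold without UH2 (0.97) or UH3 (0.99). Col5a2, a tail-to-tail neighbour of Col3a1 on chromosome 1, was at 289, 96.7 and 86.3 TPM in UN, 481, 685 and 647 TPM in UH, 82.0, 63.1 and 61.3 TPM in SN and 36.2, 37.7 and 50.4 TPM in SH. Its UH vs UN difference was 2.15 log2 (limma, adjusted p = 0.000491) and its SH vs UH difference −3.83 (adjusted p = 8.99e-06). For Col5a2 all SH libraries lay below all SN libraries, the opposite order to UH and UN, though the SH vs SN value of −0.72 was not called (limma, adjusted p = 0.138). The SE of that value, 0.364, pooled all 4 groups. The SD of log2(TPM + 1) was 0.96 in UN, where UN1 stood apart, but 0.23 in SN and 0.25 in SH. Col5a3, the third type V chain, was at 2.39, 1.31 and 0.856 TPM in UN, 9.71, 13.3 and 11 TPM in UH, 0.498, 0.485 and 0.686 TPM in SN and 2.87, 2.94 and 2.34 TPM in SH. It was called higher in UH vs UN (2.32 log2, limma, adjusted p = 4.43e-06) and in SH vs SN (1.25, adjusted p = 0.000587), and lower in SH vs UH (−1.72, adjusted p = 5.99e-05). The SH vs SN value was under the fold threshold with quantile normalization (0.97). Exons of Col5a1 overlap those of 2810430I11Rik and Gm13372 on the opposite strand, and whether counting used strand is not given in the sources used here.

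The remaining fibrillar chains were low. Col11a2, a type XI chain, was at 4.02, 4.26 and 3.73 TPM in UN, 9.17, 12.4 and 12.4 TPM in UH, 5.12, 3.56 and 3.14 TPM in SN and 12.6, 9.90 and 11.6 TPM in SH. Its rise was nearly the same in both populations, at 1.29 log2 in UH vs UN (limma, adjusted p = 0.000103) and 1.34 in SH vs SN (adjusted p = 0.000115), and the 95% interval of the difference between those rises ran from −0.50 to 0.59 log2. Col27a1, a fibrillar chain of cartilage, averaged 7.80 ± 3.39 TPM (SD, n = 3) in UN, 8.62 ± 1.94 in UH, 1.32 ± 0.161 in SN and 7.25 ± 0.844 in SH. It was called lower in SN vs UN (−1.84, limma, adjusted p = 0.000374) and higher in SH vs SN (1.83, adjusted p = 0.000291). Col2a1, the main cartilage collagen, averaged 0.555 ± 0.149, 0.281 ± 0.0687, 0.0879 ± 0.0809 and 2.09 ± 0.427 TPM in UN, UH, SN and SH (SD, n = 3 each). Its UH libraries lay below its UN libraries, with a UH vs UN value of −0.28 that was not called (limma, adjusted p = 0.106). It was called higher in SH vs SN (1.5, limma, adjusted p = 6.18e-06) and in SH vs UH (1.26, adjusted p = 1.79e-05), so SH held the highest Col2a1 values of the 4 groups. Over the 9 fibrillar chains tested, 7 were called higher under hypoxia in unsorted cells, beside 5.46% of all genes. In the sorted population 5 rose past the thresholds, beside 7.47%. Neither population had a fibrillar chain called lower, while 11.8% of all genes were in unsorted cells and 5% in sorted cells. Sorted cells in normoxia had 5 of the 9 lower than unsorted cells and 0 higher, beside 7.57% and 3.2% of all genes. Under hypoxia 6 were lower and 1 was higher, beside 5.35% and 7.65%.

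**Figure D3:**
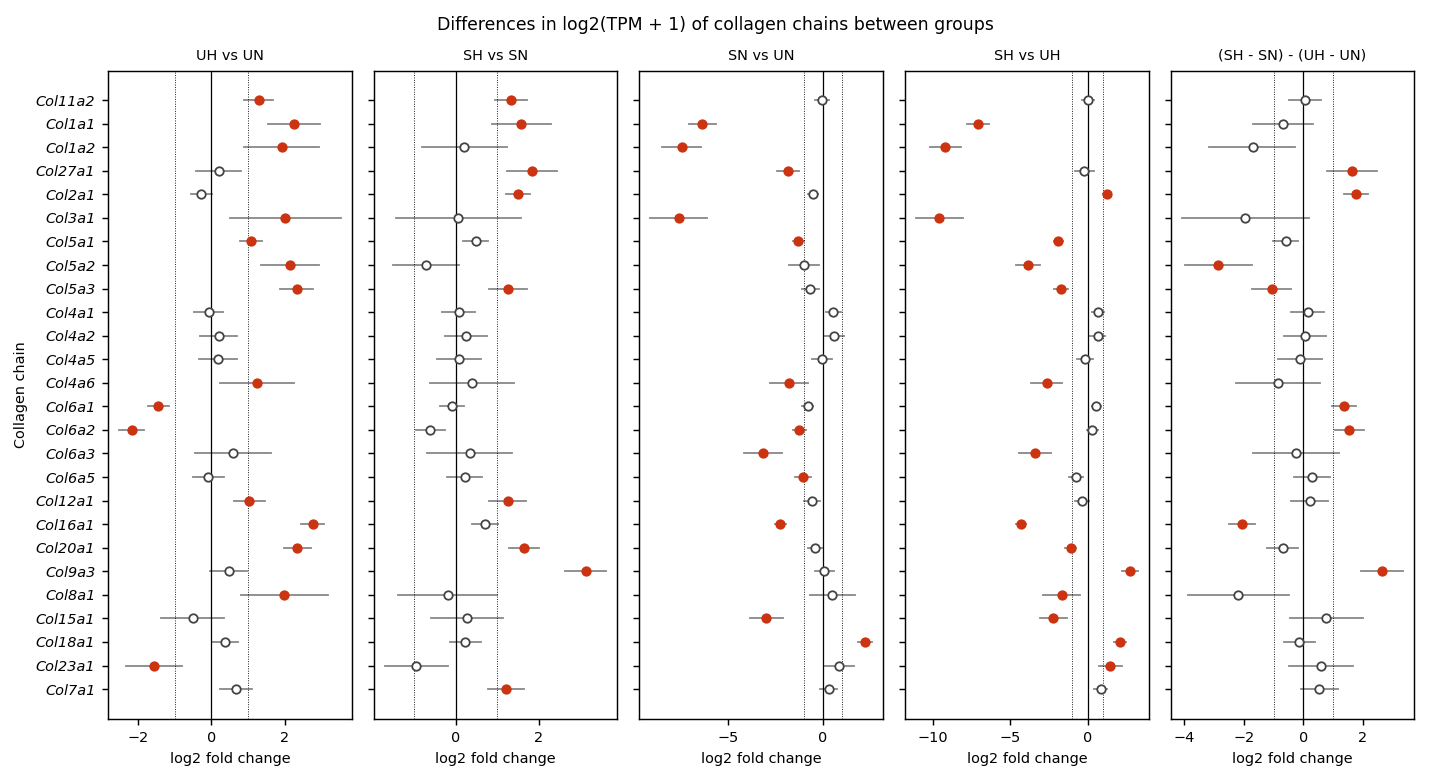
Points are log2 fold changes on the log2(TPM + 1) scale with 95% intervals for 26 chains in 5 comparisons, 1 panel each; filled points were called, dotted lines mark a fold of 2 in each direction, and the x axes differ between panels. The SN vs UN and SH vs UH panels hold points down to −9.57, against −2.16 to 2.76 in UH vs UN, while SH vs SN spans −0.95 to 3.12.

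The ubiquitous type IV chains of basement membranes changed little beside type I. Col4a1 (chr8:11198423-11312826) was at 100.2, 77.8 and 67.5 TPM in UN, 59.3, 92.4 and 84.3 TPM in UH, 132, 115 and 113 TPM in SN and 136, 137 and 107 TPM in SH. Col4a2, transcribed in the opposite direction from overlapping annotated starts, was at 88.9, 66.2 and 56.3 TPM in UN, 54.5, 98.1 and 93.7 TPM in UH, 122, 99.7 and 98.0 TPM in SN and 138, 139 and 103 TPM in SH. For both chains the sorted libraries lay above the unsorted libraries of the same oxygen level without overlap, and UN overlapped UH. The log2 differences stayed below the fold threshold, at 0.56 (95% interval 0.16 to 0.96) for Col4a1 and 0.61 (0.11 to 1.11) for Col4a2 in SN vs UN, and 0.70 (0.30 to 1.09) and 0.66 (0.16 to 1.16) in SH vs UH. In UH vs UN they were −0.06 (−0.46 to 0.33) and 0.20 (−0.30 to 0.70), and in SH vs SN 0.07 (−0.32 to 0.47) and 0.25 (−0.26 to 0.75). The sign of the UH vs UN value of Col4a1 turned with the scaling, to 0.29 with median-of-ratios and 0.15 with quantile normalization. In sorted cells Col4a1 and Col4a2 were thus more abundant than Col1a1, the reverse of the unsorted cells.

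The X-linked pair Col4a5 and Col4a6, whose annotated starts lie 1309 bases apart, did not move together. Col4a5 was at 54.2, 36.6 and 33.7 TPM in UN, 32.0, 52.4 and 59.4 TPM in UH, 44.3, 32.0 and 42.4 TPM in SN and 43.9, 45.8 and 35.2 TPM in SH, and all groups overlapped. Its log2 difference was −0.05 (95% interval −0.57 to 0.47) in SN vs UN and −0.16 (−0.68 to 0.36) in SH vs UH. Col4a6 was at 8.98 TPM in UN1 and 1.22 and 1.15 TPM in UN2 and UN3, with group means of 7.72 ± 1.65 TPM in UH, 0.0578 ± 0.0320 in SN and 0.388 ± 0.0328 in SH (SD, n = 3). It was called lower in SN vs UN (−1.78, limma, adjusted p = 0.0104) and in SH vs UH (−2.63, adjusted p = 0.000743). The SN vs UN call was lost when the 2 groups were fitted alone (limma, adjusted p = 0.0785), and the value was −1.04 without UN1. The higher call in UH vs UN (1.25, limma, adjusted p = 0.0415) stood at the threshold. It was lost with the replicate number as a block (limma, adjusted p = 0.0505), with no filter (adjusted p = 0.0818) and when the 2 groups were fitted alone (adjusted p = 0.180). It was also lost without any 1 of the UH, SN or SH libraries (log2 1.16 to 1.42, adjusted p = 0.0518 to 0.112) and without UN2 (0.89) or UN3 (0.87), and the value was 1.98 without UN1. Of the 5 type IV chains tested, Col4a6 was the 1 called in UH vs UN, SN vs UN and SH vs UH. Over all genes, 5.46% were called higher in UH vs UN, 7.57% lower in SN vs UN and 5.35% lower in SH vs UH. In SH vs SN 0 were called, beside 7.47% of all genes higher and 5% lower. There the mean TPM of Col4a6 was 6.71 times higher in SH without overlap, which the added 1 reduced to 0.39 log2.

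Of the abundant chains, the type VI chains Col6a1 and Col6a2 were called lower under hypoxia, in unsorted cells. Col6a1, at chr10:76708792-76726168, was at 628, 729 and 705 TPM in UN, 201, 282 and 284 TPM in UH, 386, 374 and 426 TPM in SN and 397, 373 and 351 TPM in SH. Its neighbour Col6a2, which supplies the second chain of the same trimer, was at 358, 464 and 438 TPM in UN, 74.4, 105 and 100.5 TPM in UH, 170.3, 162 and 199 TPM in SN and 112, 101 and 135 TPM in SH. In UH vs UN both were lower without overlap, by −1.44 ± 0.131 log2 for Col6a1 (limma, adjusted p = 4.75e-06) and −2.16 ± 0.157 for Col6a2 (adjusted p = 9.52e-07). In SH vs SN the changes were −0.08 and −0.61 and were not called. Col6a2 was also called lower in SN vs UN (−1.24, limma, adjusted p = 0.000117). Col6a3, which completes the trimer, was at 35.1 TPM in UN1 and 7.23 and 7.43 TPM in UN2 and UN3, 13.5, 22.7 and 23.9 TPM in UH, 0.530, 0.457 and 0.583 TPM in SN and 0.784, 1.5 and 0.583 TPM in SH. It was called lower in both sorted groups, by −3.16 in SN vs UN (limma, adjusted p = 0.000352) and −3.41 in SH vs UH (adjusted p = 0.000149), and the first value was −2.45 without UN1. Of this trimer, Col6a3 was thus called lower in both comparisons of sorted with unsorted cells, Col6a2 in 1 of them and Col6a1 in neither. Col6a5, a further type VI chain, averaged 1.18 ± 0.657, 1.03 ± 0.370, 0.0375 ± 0.0206 and 0.199 ± 0.0900 TPM in UN, UH, SN and SH (SD, n = 3). Its lower call in SN vs UN (−1.03, limma, adjusted p = 0.00159) fell short of the fold threshold without UN1 (−0.80) and with median-of-ratios (−0.96) or quantile scaling (−0.89).

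Among the fibril-associated chains, Col16a1 rose in UH vs UN, with a mean TPM 6.93 times higher in UH. By that ratio Col20a1 (13.5) and Col5a3 (7.44) rose more. This chain binds to fibrils and to basement membrane zones (chr4:130047840-130099283) and was at 47.5, 47.2 and 40.7 TPM in UN, 275, 350.5 and 313 TPM in UH, 10.7, 6.98 and 8.92 TPM in SN and 14.5, 15.5 and 14.7 TPM in SH. No groups overlapped, and UN1 stood with UN2 and UN3. The log2 fold change was 2.76 ± 0.141 in UH vs UN (limma, adjusted p = 7.28e-08), −2.24 in SN vs UN (adjusted p = 4.82e-07) and −4.30 in SH vs UH (adjusted p = 2.20e-09). Col12a1, which bridges type I fibrils, was at 53.5, 81.4 and 89.1 TPM in UN, 114, 175 and 172 TPM in UH, 51.7, 42.7 and 53.1 TPM in SN and 115, 116 and 121 TPM in SH. It was called higher in UH vs UN (1.04, limma, adjusted p = 0.00109) and in SH vs SN (1.25, adjusted p = 0.000407). The UH vs UN value was under the fold threshold without UH2 (0.93), UH3 (0.95) or UN1 (0.82). Col12a1 was not called between sorted and unsorted cells. The SH libraries lay inside the UH range, whereas every SN library lay below every UN library, by −0.57 log2 (limma, adjusted p = 0.0448) and by −0.79 without UN1 (adjusted p = 0.00483).

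Col9a3, a chain of cartilage type IX collagen, was at 1.12, 1.12 and 0.589 TPM in UN, 1.24, 2.75 and 1.25 TPM in UH, 1.48, 0.901 and 0.817 TPM in SN and 16.8, 19.2 and 14.6 TPM in SH. Only the SH libraries stood above 3 TPM. The log2 fold change was 3.12 ± 0.228 in SH vs SN (limma, adjusted p = 1.74e-06) and 2.74 ± 0.228 in SH vs UH (adjusted p = 3.31e-06). The other type IX chains, Col9a1 and Col9a2, were among the chains too low to test. Exons of Col9a3 overlap those of Tcfl5 on the opposite strand. Col20a1, whose exons overlap BX649560.1 on the same strand, averaged 0.489 ± 0.213, 6.58 ± 1.37, 0.122 ± 0.0389 and 2.52 ± 0.373 TPM in UN, UH, SN and SH (SD, n = 3). It was called higher in UH vs UN (2.34, limma, adjusted p = 8.75e-07) and SH vs SN (1.65, adjusted p = 1.85e-05) and lower in SH vs UH (−1.09, adjusted p = 0.000323). Without UH2 the latter was −0.98.

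Of the multiplexins, which lie in basement membrane zones and release antiangiogenic fragments such as endostatin, Col18a1 was the chain called higher in sorted cells at both oxygen levels. Col18a1 (chr10:77052178-77166548) was at 92.3, 59.3 and 62.7 TPM in UN, 72.7, 98.7 and 106 TPM in UH, 357, 333 and 319 TPM in SN and 413, 395 and 379 TPM in SH. The log2 fold change was 2.25 ± 0.168 in SN vs UN (limma, adjusted p = 1.81e-06) and 2.10 ± 0.168 in SH vs UH (adjusted p = 2.35e-06). Col15a1, the other multiplexin, was at 20.6, 4.62 and 5.41 TPM in UN, 5.21, 5.17 and 6.03 TPM in UH, 0.291, 0.151 and 0.0506 TPM in SN and 0.693, 0.206 and 0.326 TPM in SH. It was called lower in SN vs UN (−2.99, limma, adjusted p = 0.000156) and SH vs UH (−2.21, adjusted p = 0.000919), with −2.37 in the first without UN1. The multiplexins thus moved in opposite directions between unsorted and sorted cells. Exons of Col15a1 overlap Gm12426 on the opposite strand.

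Col8a1, a short-chain collagen of vascular matrix, was at 25.1, 3.19 and 3.22 TPM in UN, 23.2, 31.0 and 36.4 TPM in UH, 11.3, 9.76 and 8.93 TPM in SN and 8.67, 10.3 and 7.01 TPM in SH. UN1 lay within the UH range, and UN2 and UN3 lay below every sorted library. It was called higher in UH vs UN (1.99, limma, adjusted p = 0.0103) and lower in SH vs UH (−1.68, adjusted p = 0.0275). The first call was lost without UN2 (1.55) or UN3 (1.56) and when the 2 groups were fitted alone (limma, adjusted p = 0.0894), and the value was 2.87 without UN1. The second was lost with no filter (limma, adjusted p = 0.0514) and without UH2 (−1.65), UH3 (−1.54) or any 1 of the SH libraries (−1.55 to −1.80). Col7a1, the anchoring fibril collagen of epithelial basement membranes, whose exons overlap Mir711 on the same strand, was at 4.38, 5.19 and 3.79 TPM in UN, 7.86, 6.84 and 8.50 TPM in UH, 4.83, 6.22 and 6.36 TPM in SN and 18.7, 10.5 and 16.2 TPM in SH. It was called higher in SH vs SN (1.21, limma, adjusted p = 0.000550). The transmembrane chain Col23a1 averaged 3.94 ± 2.34, 0.524 ± 0.110, 7.28 ± 1.30 and 3.34 ± 1.02 TPM in UN, UH, SN and SH (SD, n = 3). It was called lower in UH vs UN (−1.55, limma, adjusted p = 0.00324) and higher in SH vs UH (1.48, adjusted p = 0.00521). The tested chains called in none of the 5 comparisons were Col4a1, Col4a2, Col4a3, Col4a5, Col14a1, Col17a1, Col22a1 and Col28a1.

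The UN libraries spread more in collagen chains than in genes at large, and UN1 was the library that stood apart. The median SD of log2(TPM + 1) over the 3 libraries was 0.36 for the 31 chains in UN against 0.17 for all genes, 0.27 against 0.18 in UH, 0.15 against 0.12 in SN and 0.19 against 0.16 in SH. The SD was above 1 for 7 chains in UN (Col1a2, Col3a1, Col4a6, Col6a3, Col8a1, Col15a1 and Col28a1), against 1.74% of all genes, and for 0 chains in the other groups. UN1 exceeded the mean of UN2 and UN3 by more than 1 log2 in 9 chains and was lower by more than 1 in 2 (Col23a1 and Col27a1), against 2.36% and 2.94% of all genes. The TPM ratio of UN1 to the mean of UN2 and UN3 was 9.93 for Col3a1, 7.82 for Col8a1, 7.60 for Col4a6, 4.90 for Col1a2, 4.79 for Col6a3, 4.10 for Col15a1, 3.16 for Col5a2 and 2.56 for Col1a1. It was 16.4 for Col28a1, a low chain named here after its values were seen, at 8.45, 0.559 and 0.474 TPM in UN1, UN2 and UN3. Other chains did not share this pattern: the ratio was 1.08 for Col16a1, 1.01 for Col11a2, 0.939 for Col5a1 and 0.876 for Col6a1. UN1 was inside the UH range for Col3a1 and Col8a1, above it for Col4a6, Col6a3, Col15a1 and Col28a1, and between UN2 and the lowest UH library for Col1a1, Col1a2 and Col5a2.

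**Figure D4:**
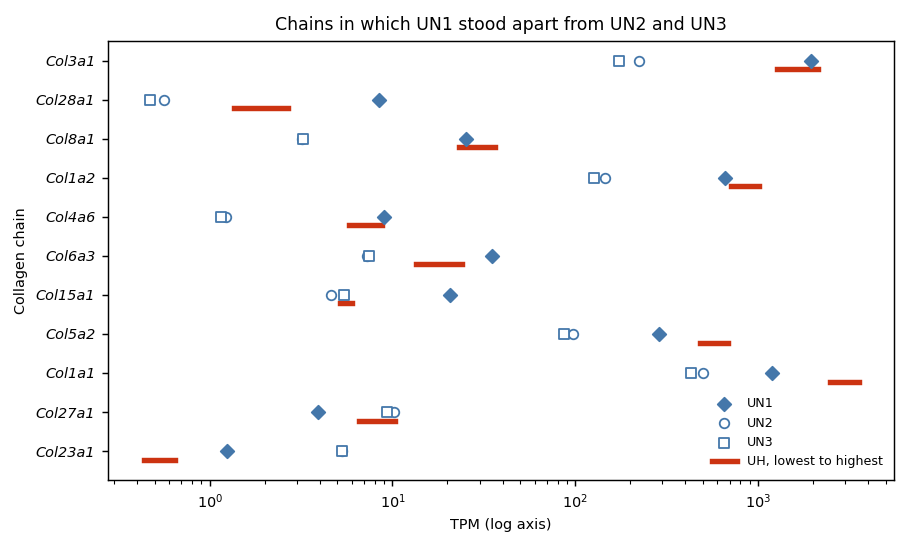
For the 11 chains in which UN1 differed from the mean of UN2 and UN3 by more than 1 log2, markers give the TPM (log axis) of UN1 (filled diamond), UN2 (circle) and UN3 (square), and bars the range of the 3 UH libraries. UN2 and UN3 nearly coincide, and the Col3a1 diamond (1959.8 TPM) lies inside the UH bar.

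Cell type markers and hypoxia genes moved with UN1 in different ways. The summed TPM of 16 fibroblast or stellate cell markers was 5425 in UN1 and 2953 and 2701 in UN2 and UN3, against 7557 to 8337 in UH, 6078 to 7356 in SN and 4455 to 4953 in SH. Most of that sum came from S100a4 and Vim, and its members went separate ways. Of the 14 markers tested, sorted cells had 1 called higher and 5 called lower in normoxia, beside 3.2% and 7.57% of all genes. Under hypoxia they had 1 higher and 6 lower, beside 7.65% and 5.35% of all genes. S100a4, the marker called higher in SN vs UN, was at 625 to 2192 TPM in UN and 4779 to 6018 in SN. The 5 called lower, picked here after their values were seen, were Pdgfra, Postn, Acta2, Tagln and Prrx1, with log2 values of −5.72, −5.57, −3.20, −3.67 and −4.13, and they fell in the same comparison as the type I and III chains. The other 8 tested markers were not called in SN vs UN, among them Pdgfrb (0.11), Dcn (−0.18), Twist1 (0.08) and Vim (−0.33). UN1 was below UN2 and UN3 for Pdgfra (80.4 against 168 and 176 TPM) and Postn (191 against 296 and 299.8 TPM), and above them for Acta2 (845 against 172 and 162 TPM). Lrat was at 0 in all libraries, and Lum, Thy1 and Reln were under 1 TPM in all. The sum of 15 endothelial markers was 47.1, 11.5 and 12.5 in UN1, UN2 and UN3, 55.4 to 71.7 in UH, 8.02 to 9.43 in SN and 20.3 to 29.6 in SH, with 10 of the 15 under 1 TPM in every library. Eng made up most of that sum in UN. Of the 8 tested, 2 were called higher in SN vs UN and 1 lower, beside 3.2% and 7.57% of all genes. The higher ones were Tek, the Tie2 gene, whose promoter drove the EGFP used for the sort (0.124 to 0.141 TPM in UN and 2.07 to 2.70 in SN), and Plvap (log2 1.02), and the lower one was Eng (−2.90). The sum of 12 hepatocyte or hepatoblast markers was 120.1, 282 and 296 in the UN libraries, 182 to 220.5 in UH, 115 to 165 in SN and 97.3 to 177 in SH. Its members also went separate ways. Of the 10 tested, 1 was called higher in SN vs UN (Afp, 1.86) and 5 lower, among them Krt8 (−3.43) and Dlk1 (−5.06), beside 3.2% and 7.57% of all genes. The sum of 9 macrophage or leukocyte markers was 117, 88.5 and 89.4 in the UN libraries, 46.1 to 49.7 in UH, 304 to 345 in SN and 126 to 136 in SH, and 5 of the 9, Ptprc and Adgre1 among them, were under 1 TPM in all. Cd14 made up most of the sum in UN (81.4 to 107 TPM) and SN (294 to 330.1 TPM). Of the 5 tested, 2 (Cd14 and Cd68) were called higher in SN vs UN and 0 lower, beside 3.2% and 7.57% of all genes. Csf1r (0.32), Lyz2 (−0.51) and Itgam (−0.05) were not called. Of 4 hypoxia-inducible genes picked after their values were seen, Ndrg1 was at 50.3 TPM in UN1, 122 in UN2 and 114 in UN3, against 1063 to 1145 in UH. Egln3 was at 10.8, 24.2 and 27.5 TPM against 109.7 to 126, and Pdk1 at 18.9, 23.7 and 25.6 TPM against 94.5 to 151. Car9 was at 0.961 TPM in UN1 and listed at 0 in UN2 and UN3, against 1.11 to 1.39 TPM in UH. UN1 was thus below UN2 and UN3 in 3 of these genes and above them in Car9. Genes acting on collagens that were called higher in UH vs UN, also picked after their values were seen, went both ways. P4ha1 was at 93.4 TPM in UN1 against 49.9 and 50.3 in UN2 and UN3, and Plod2 at 55.6 against 30.7 and 30.3. Loxl2 was at 70.1 TPM against 16.3 and 14.8. P4ha2 was lower in UN1, at 105 TPM against 158 and 154, as was P4hb, at 995 against 1285 and 1153. The part of any of these differences in the collagen values was not tested.

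Leaving UN1 out changed which chains were called. In UH vs UN, 16 chains were then called, 13 higher (5.88% of all genes under that setting) and 3 lower (13.9%). Col12a1 was lost, and Col6a3 (1.30 log2, limma, adjusted p = 0.00164) and Col28a1 (1.03, adjusted p = 0.000898) were gained. Of the 12 chains then called in SN vs UN, 2 were higher (3.92% of all genes) and 10 lower (9.06%), with Col6a5 lost and Col8a1 gained as higher in sorted cells (1.38, adjusted p = 0.000371). The folds of Col1a2 and Col3a1 in UH vs UN were 2.68 and 3.12 without UN1, and in SN vs UN −6.70 and −6.51.

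The response to hypoxia itself differed between sorted and unsorted cells for 8 chains. In the difference (SH − SN) − (UH − UN), 5 chains were called higher (8.08% of all genes) and 3 lower (2.18%). Median-of-ratios scaling gave 5 and 4 for the chains and 4.76% and 4.14% for all genes, and quantile normalization gave 5 and 5 for the chains. The difference was negative for Col5a2 (−2.87 ± 0.515, limma, adjusted p = 0.00289), Col16a1 (−2.06 ± 0.20, adjusted p = 7.23e-05) and Col5a3 (−1.07 ± 0.297, adjusted p = 0.0249). All 3 rose in unsorted cells, and in SH vs SN Col5a3 rose as well, while Col16a1 (0.70) and Col5a2 (−0.72) were not called. The Col5a3 call was lost without SH3 (−0.99), SN3 (−1.01), UH2 (−0.96), UN2 (−1.03) or UN3 (−0.87) and with a pseudocount of 0.1 (−0.81). The difference was positive for Col9a3 (2.65 ± 0.323, limma, adjusted p = 0.000294), Col2a1 (1.78 ± 0.185, adjusted p = 0.000116) and Col27a1 (1.63 ± 0.390, adjusted p = 0.0127), which rose in sorted cells and were not called in UH vs UN (0.47, −0.28 and 0.20). It was also positive for Col6a2 (1.55 ± 0.223, limma, adjusted p = 0.000791) and Col6a1 (1.36 ± 0.185, adjusted p = 0.000588), which fell in unsorted cells. Without UN1 15 chains were called in this difference, 6 higher and 9 lower, among them all 8. Over all genes the shares called rose as well, to 11.2% higher and 3.36% lower. The 7 gained were Col3a1 (−1.95 with UN1 and −3.06 without), Col8a1 (−2.19 and −3.06), Col1a2 (−1.71 and −2.48), Col4a6 (−0.86 and −1.59), Col1a1 (−0.68 and −1.13), Col28a1 (−0.20 and −1.08) and Col23a1 (0.60 and 1.10). Col1a2, Col4a6 and Col28a1 were below 1 TPM in every sorted library, where the added 1 shrinks the sorted response. For Col4a6 the difference with UN1 was 0.00 with a pseudocount of 0.1. Its mean TPM was 6.71 times higher in SH than in SN.

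Chains that assemble into 1 trimer did not keep a constant transcript ratio in every case. The ratio of Col1a1 to Col1a2 was 1.79, 3.44 and 3.39 in UN1, UN2 and UN3 and 3.38 to 3.52 in UH, but 15.0 to 33.8 in SN and 28.6 to 61.0 in SH. The Col1a2 level behind the sorted ratios was below 0.6 TPM, so they rest on a low denominator. The ratio of Col4a1 to Col4a2 stayed between 0.900 and 1.20 in all 12 libraries. That of Col5a1 to Col5a2 was 0.443 in UN1 and 1.47 and 1.52 in UN2 and UN3, 0.450 to 0.490 in UH, 0.693 to 0.872 in SN and 1.44 to 2.17 in SH. That of Col6a1 to Col6a2 was 1.57 to 1.75 in UN, 2.68 to 2.82 in UH, 2.15 to 2.31 in SN and 2.60 to 3.69 in SH. For type V, UN1 lay at the UH ratio, whereas for type VI it lay just above UN2 and UN3.

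**Figure D5:**
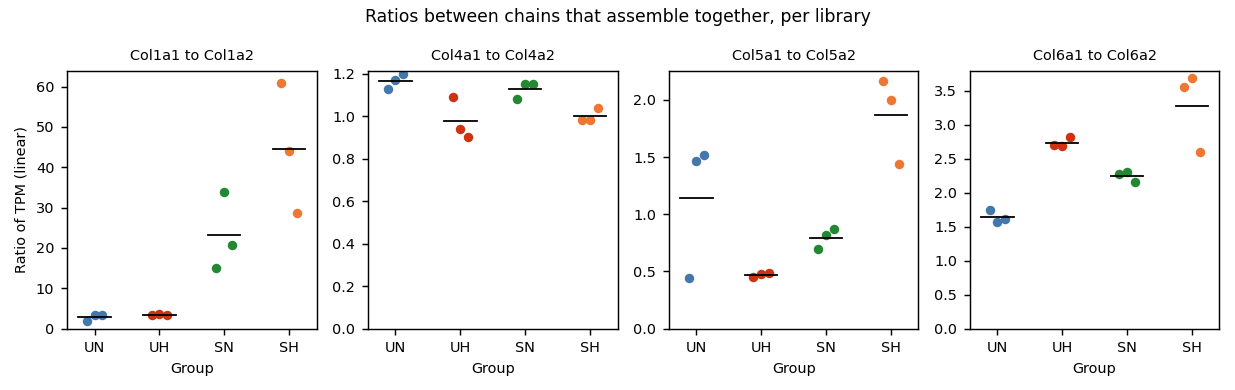
Each panel plots the ratio of TPM (linear axis from 0) between a pair of chains that assemble together, with 1 point per library and a line at the mean of each group of 3. The Col4a1 to Col4a2 ratio lies between 0.900 and 1.20 throughout, while the Col1a1 to Col1a2 ratio rises from 1.79 to 3.52 in unsorted libraries to 15.0 to 61.0 in sorted ones.

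Genes that act on collagens were examined as 4 lists, of which the fibril-binding one shares Dcn, Lum and Postn with the fibroblast markers. Of 24 tested genes of procollagen folding and hydroxylation, 8 were called higher and 2 lower under hypoxia in unsorted cells, and 7 higher and 0 lower in sorted cells. Over all genes tested the shares called were 5.46% higher and 11.8% lower in unsorted cells, and 7.47% and 5% in sorted cells. In sorted against unsorted cells 0 were called higher, beside 3.2% of all genes higher in normoxia and 7.65% under hypoxia. In the same comparisons 11 were called lower in normoxia and 10 under hypoxia, beside 7.57% and 5.35% of all genes lower. The 2 of 24 lower in UH vs UN was below the share of all genes. P4hb, the β subunit of prolyl 4-hydroxylase, was at 995 to 1285 TPM in UN, 6417 to 7544 in UH, 725 to 917 in SN and 4357 to 6737 in SH, and its α subunit P4ha2 at 105 to 158, 1090.2 to 1382, 39.6 to 51.0 and 546 to 725 TPM. P4hb and P4ha2 were thus high under hypoxia also in the sorted cells, where type I and III transcripts were nearly lost. P4ha3, a further α subunit named here after its values were seen, was at 28.2 to 32.8 TPM in UN, 7.79 to 12.3 in UH, 0.661 to 1.26 in SN and 1.01 to 1.94 in SH. It was called lower in UH vs UN (−1.56 log2), and sorted cells held less of it at both oxygen levels (−4.01 in normoxia and −2.21 under hypoxia, both called). Serpinh1, the collagen-specific chaperone HSP47, named here after its values were seen, was at 461 to 726 TPM in UN, 362 to 419.6 in UH, 1.56 to 3.14 in SN and 0.467 to 0.944 in SH.

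Of 15 genes of propeptide cleavage and crosslinking, 4 were called higher and 2 lower under hypoxia in unsorted cells, and 1 higher and 3 lower in sorted cells. The 2 of 15 lower in UH vs UN was near the 11.8% of all genes, and the shares over all genes given for the first list hold for these counts and for those of the next lists. In sorted against unsorted cells 0 were higher, and 5 were lower in normoxia and 7 under hypoxia. Lox, the crosslinking lysyl oxidase, was at 128 to 145 TPM in UN, 516 to 918 in UH, 0.112 to 0.176 in SN and 0.529 to 0.807 in SH. Bmp1, which removes the C-propeptide of fibrillar chains, was at 170.1 to 284 TPM in UN, 206 to 263 in UH, 125 to 133 in SN and 191 to 205 in SH, and was called in none of the 5 comparisons. Of 16 fibril-binding proteoglycans and glycoproteins, 3 were called higher and 3 lower under hypoxia in unsorted cells, and 2 higher and 1 lower in sorted cells. Against unsorted cells, sorted cells had 0 higher, with 10 lower in normoxia and 7 lower under hypoxia. Bgn, the fibril-binding proteoglycan biglycan, also had UN1 apart, with 1126 TPM in UN1 and 212 and 219 TPM in UN2 and UN3, 1273 to 1557 in UH, 17.1 to 18.6 in SN and 8.75 to 10.1 in SH. Of 8 collagen receptors, 3 were called higher and 1 lower under hypoxia in unsorted cells, and 0 higher and 1 lower in sorted cells. Sorted against unsorted cells gave 1 higher and 3 lower at each oxygen level. Mrc2, the receptor that internalises collagen, was at 27.8 TPM in UN1 and 5.11 and 4.84 TPM in UN2 and UN3, 61.0 to 85.0 in UH, 0.0657 to 0.0962 in SN and 0.822 to 1.39 in SH. Itgb1, the common β1 subunit of the collagen-binding integrins, was at 353 to 366 TPM in UN, 406 to 549 in UH, 363 to 408 in SN and 367 to 416 in SH.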

How the data were processed

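RNA-seq was performed on 12 libraries of BN1-Tie2-EGFP cells, 3 each of UN, UH, SN and SH, grouped by their labels. Per the labels, stranded mRNA libraries were sequenced as 150-cycle paired ends. The authors processed the reads with nf-core/rnaseq 3.12.0 (build mm10 in the submitters' processing notes) and deposited TPM per gene and library. The annotation release and the strand setting of the counting are not given in the sources used here. TPM hold no read depth, so precision is given by the spread of replicates.

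With limma 3.58.1 (R 4.3.3), log2(TPM + 1) of every gene averaging 0.1 TPM or more was modelled as 4 group means over all 12 libraries, with empirical Bayes moderation and a trend. P-values were adjusted by Benjamini-Hochberg over the 18909 genes of each comparison. On simulated data with 200 changed genes in UH vs UN, 197 were recovered with 0 false calls among 18909 genes. Each changed gene was shifted by more than the fold threshold, low genes were not among them, and every group had the same spread. The simulation thus says nothing about folds near the threshold, low chains or a library that stands apart. A chain with a group mean of at least 10 TPM was given by library, another called chain by its means, and the rest by class. In the lists, at most 4 genes with the highest mean TPM were named. The members and gene lists were chosen with earlier results of these data known. Coordinates are from GENCODE M21 (GRCm38), in which 98.8% of the gene identifiers were found. Tables and figures used Python 3.11.15, numpy 2.4.6, pandas 2.3.3 and matplotlib 3.10.9.

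The alternatives were a pseudocount of 0.1, no filter, a stricter filter (mean of 1 TPM), median-of-ratios and quantile scaling, rescaling without the 20 highest genes, no trend, the compared groups alone, a replicate block and leaving out each library.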

Additional observations from a re-analysis of the deposited data

Results flagged for a closer look

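A difference between the hypoxia responses of sorted and unsorted cells, (SH − SN) − (UH − UN) on the log2 scale with a limma adjusted p under 0.05 and an absolute value above 1, drew attention to 8 chains. The values were −2.87 for Col5a2, −2.06 for Col16a1 and −1.07 for Col5a3, which were called higher under hypoxia in unsorted cells. In sorted cells Col5a3 was called higher by a smaller value, and Col16a1 (0.70) and Col5a2 (−0.72) were not called. They were 2.65 for Col9a3, 1.78 for Col2a1 and 1.63 for Col27a1, which were called higher under hypoxia in sorted cells and not called in unsorted cells, where the Col2a1 value was below 0 (−0.28). They were 1.55 for Col6a2 and 1.36 for Col6a1, which were called lower in unsorted cells and not called in sorted cells. Groups of 3 libraries were too small for a test of single libraries that stand apart.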

How the results depend on the processing

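The alternatives gave 1640 values for 79 log2 fold changes of single chains. Of these values, 1571 kept their direction and their side of the threshold, 48 lost the call and 9 gained one. Another 12 changed sign, all of them for fold changes that were not called. The sign turned for Col4a1 in UH vs UN with median-of-ratios (0.29) and quantile scaling (0.15), for Col4a5 in SN vs UN with median-of-ratios scaling (0.07) and for Col4a6 in the difference of responses with a pseudocount of 0.1 (0.00). Leaving out single libraries gave −0.19 to 0.13 for Col4a1 in UH vs UN, and for Col4a5 −0.07 to 0.19 in SH vs SN, −0.18 to 0.15 in SN vs UN and −0.42 to 0.01 in SH vs UH. It gave −1.08 to 0.26 for Col28a1 in the difference of responses. With single libraries left out, called chains numbered 11 to 16 in UH vs UN, 9 in SH vs SN each time, 12 to 15 in SN vs UN, 14 to 17 in SH vs UH and 7 to 15 in the difference of responses, where the 15 was without UN1. Under the other alternatives they numbered 11 to 16, 8 to 12, 11 to 17, 15 to 20 and 7 to 10 in the same order. The cause was not tested. The replicate block gave 14, 9, 12, 16 and 8 called chains in the 5 comparisons, against 15, 9, 12, 16 and 8 without it, the chain lost being Col4a6 in UH vs UN. Same-numbered libraries correlated at −0.0631 to 0.141 in their deviations, and at most 2 of 6 libraries in a comparison correlated best with their own number, so numbers were not treated as pairs. Median-of-ratios scaling moved the all-gene median from −0.19 to 0.00 in UH vs UN, from 0.17 to 0.03 in SH vs UH and from 0.25 to 0.02 in the difference of responses. Depth is unknown, so no limit of detection is given for chains listed near 0 TPM.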
